A study of Mus musculus with 6 samples.

Results

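The endoplasmic reticulum (ER) folds and checks the proteins that a cell secretes or places in its membranes, and 34 genes of that machinery and of its stress response were followed here in the lungs of mice lacking Foxa2. The members were taken from a list of named genes, and each was represented by its probe set with the highest mean over the 6 arrays among probe sets annotated to that symbol alone. All 34 were measured, out of 18193 genes on the array, through 83 probe sets. Foxa2 encodes a transcription factor that airway and alveolar epithelial cells make, and the design text asks about its part in type 2 inflammation and in an excess of mucus-making goblet cells. Whole-lung RNA was taken at postnatal day 15 from 3 controls, with the genotype label wildtype, and from 3 samples with the genotype label Foxa2-/-; the design text calls the controls littermates but does not tie samples to litters. All 6 samples carry the same strain label, SPC(+)Cre(-) with doxycycline (Dox) from embryonic day 6.5 to 12.5, which for the Foxa2-/- samples conflicts with the genotype label. SPC is the promoter of the surfactant protein C gene, which is active in lung epithelium, so cells outside the epithelium are not targeted by such a transgene. No label states that the arrays come from different animals, so the p-values rest on a spread between samples that may be technical.

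When unfolded proteins gather in the ER, 3 sensors respond: IRE1 (gene Ern1), which splices the mRNA of the transcription factor Xbp1; ATF6, which is cut free from the membrane to act in the nucleus; and PERK, which slows translation and favours the transcription factor Atf4. XBP1 and ATF6 raise chaperones, oxidoreductases and the machinery that exports misfolded proteins for degradation (ERAD), and ATF4 raises amino acid synthesis and Ddit3. Goblet, plasma and alveolar type II cells are secretory cells with a large ER. Splicing, cleavage and phosphorylation of the sensors are not measured by the probe set signals used here.

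The deposited values are log2 signals made with RMA, a procedure that corrects background, gives the arrays a common distribution and summarises each probe set, and array medians lay between 7.85 and 7.91. Pearson's r between pairs of arrays, across probe sets, was 0.972 to 0.992. Foxa2 read 10.28, 10.56 and 10.28 in the controls and 7.72, 5.38 and 5.13 in Foxa2-/- replicates 1 to 3, with the highest of these in replicate 1. On average Foxa2 was 19.7-fold lower (log2 difference -4.30, SE 0.66, limma adjusted p = 0.0599). That array also stood apart for many members, and counts are given with and without it. Alveolar type II markers marked every sample as lung, with a mean log2 level over 9 genes of 13.31 to 13.48 in controls and 13.53 to 13.65 in Foxa2-/- lungs. For the Gapdh control probes, the 3-prime signal exceeded the 5-prime signal, a sign of RNA quality, by 1.06 to 1.23 in controls and by 0.91 to 0.97 in Foxa2-/- lungs, and its part in the results was not tested. The first number in the sample titles is shared by control replicate 2 and Foxa2-/- replicates 2 and 3, and its meaning is not given.

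Among the 34 genes, 1 rose in Foxa2-/- lungs, none fell and 33 did not pass the test (limma, Benjamini-Hochberg adjusted p under 0.05 over all 18193 genes). Over all genes 0.473% rose and 0.0989% fell, or 0.572% in all. The gene that rose was Sdf2l1. The median log2 difference of the members, Foxa2-/- minus control, was 0.05, beside 0.01 over all genes, and the differences ran from -0.43 for Asns to 1.13 for Sdf2l1. Their median size without regard to sign was 0.10, beside 0.16 over all genes. For 31 of the 34 the 95% interval of the difference lay within 2-fold in either direction, which held for 81.6% of all genes. The exceptions were Sdf2l1, Derl3 and Asns. An unadjusted p under 0.05 was reached by 4 members (Sdf2l1, Derl3, Hyou1 and Trib3), or 11.8%, where 12.3% of all genes reached it.

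**Figure D1:**
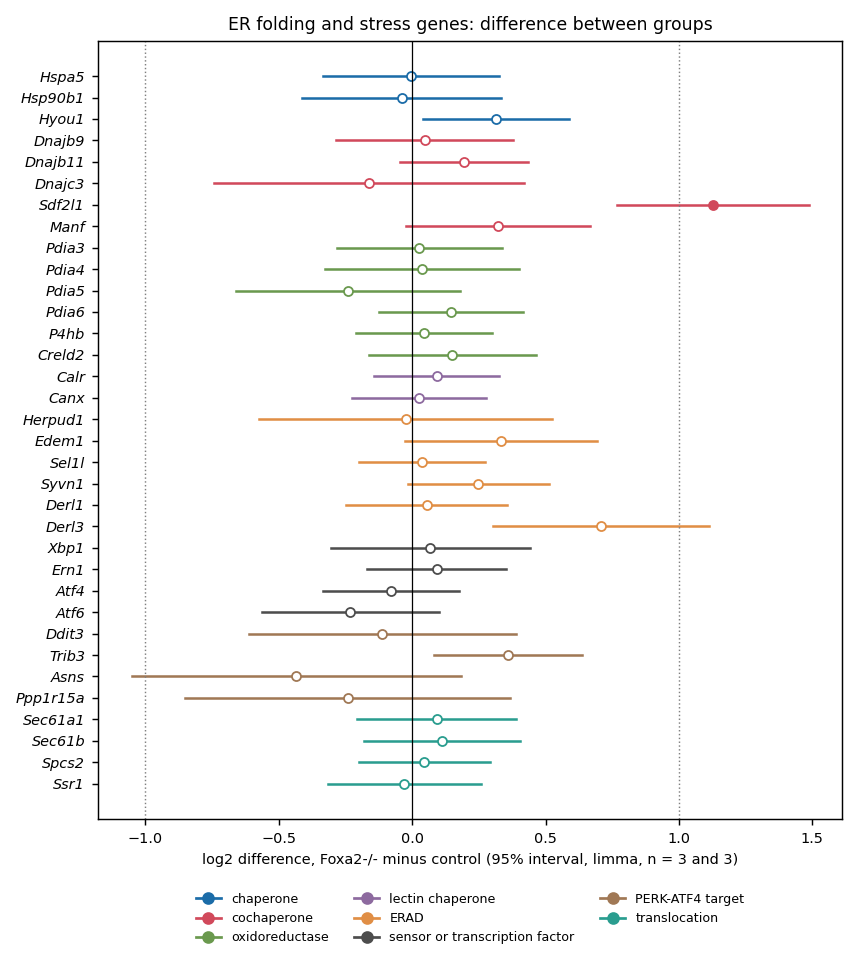
The log2 difference between Foxa2-/- and control lungs (x axis, log2 units) is plotted for each of the 34 genes with its 95% limma interval, coloured by role; the filled point passed the test and dotted lines mark 2-fold. Sdf2l1, at 1.13, is the only filled point, and the intervals of Derl3 and Asns also reach past 2-fold.

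In 8 members every Foxa2-/- array lay above every control, and in none did every one lie below. Over all genes 10.8% lay above and 8.73% below, or 19.6% in all. The 8 were Sdf2l1, Derl3, Trib3, Manf, Hyou1, Syvn1, Dnajb11 and Calr, and their differences ran from 0.09 for Calr to 1.13 for Sdf2l1. They make up 23.5% of the members. The difference was positive in 23 members and negative in 11, or 67.6% positive, beside 50.8% over all genes. Measured from the control mean, the median member stood at 0.07, 0.10 and 0.08 on Foxa2-/- replicates 1 to 3 and between -0.02 and 0.03 on the controls. The median over all genes stood at 0.09 on replicate 1 and at -0.02 and -0.03 on replicates 2 and 3.

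Sdf2l1 encodes an ER protein that works with the co-chaperone Dnajb11. It read 9.12, 9.05 and 9.33 in control replicates 1 to 3 and 10.18, 10.54 and 10.17 in Foxa2-/- replicates 1 to 3. The highest control stood 0.83 below the lowest Foxa2-/- array, and replicate 1 was as high as replicate 3. Its mean went from 9.17 ± 0.15 to 10.29 ± 0.21 (log2, SD, n = 3 each). This is a rise of 2.18-fold, with an interval of 1.70 to 2.80 (log2 difference 1.13, SE 0.15, limma adjusted p = 0.0429). Whole-lung RNA cannot tell more cells that make Sdf2l1 from more of its RNA per cell. Leaving out Foxa2-/- replicate 1 kept it (1.18, limma adjusted p = 0.0408), while leaving out any other array gave differences of 1.01 to 1.21 with adjusted p values of 0.0953 to 0.201. Those fits called few genes of any kind, 19 of 18193 without control replicate 3, 7 without Foxa2-/- replicate 2 and 0 without control replicate 1, control replicate 2 or Foxa2-/- replicate 3, so no member could pass in the last 3. Cyclic loess also ended it (1.14, limma adjusted p = 0.0573), in a fit that called 48 genes. Among the 1 control and 2 Foxa2-/- arrays with the same title number the difference was 1.30, a value given with no test since that fit called 0 genes. Sdf2l1 has a single probe set, which adjusted over all 45037 probe sets had a limma adjusted p of 0.0762.

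**Figure D2:**
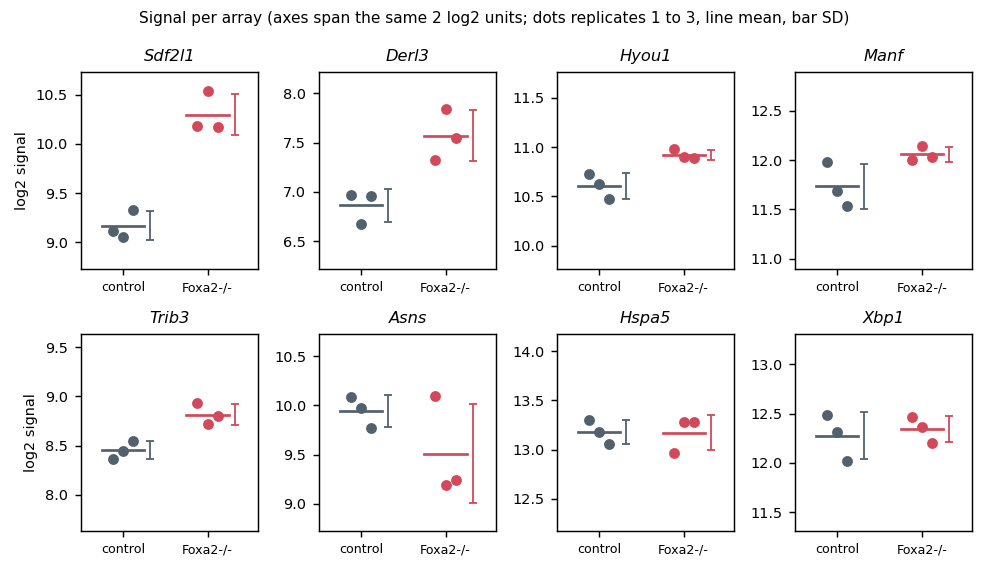
Log2 signal (y axis) of 8 genes in the 3 control and 3 Foxa2-/- arrays, with points for replicates 1 to 3 from left to right, a line at the mean and a bar for the SD; every panel spans the same 2 log2 units. The groups are apart for Sdf2l1, Derl3, Hyou1, Manf and Trib3, while Asns is low in Foxa2-/- replicates 2 and 3 only, and Hspa5 and Xbp1 overlap.

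A sequence known to carry the ATF6 response is the ER stress element, CCAAT and CCACG held 9 bases apart. RefSeq promoter windows of build GRCm38.p6 (250 bases before to 50 after a gene's start, 300 in all) were found for 29 of the 34 genes; Atf6, Derl1, Hyou1, Manf and Sec61a1 had none. On either strand the element was present in 9 of these 29 windows, or 31.0%, and in 0.119% of all 32851 windows. The element is known from the same stress response that the members were listed for. The shares are therefore a description and no independent finding. The 10 copies are shown so that their letters can be compared between the 9 genes that hold them; the other 20 windows lack the spaced form. The sequences run 5′ to 3′ on the strand of the gene, with the 5-base parts in capitals. CCAAT and CCACG appear there as ATTGG and CGTGG where the element lies on the opposite strand.
Hspa5 (chr2:34772017-34772051, + strand): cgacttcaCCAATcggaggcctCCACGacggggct
Hsp90b1, distal copy (chr10:86705630-86705664, - strand): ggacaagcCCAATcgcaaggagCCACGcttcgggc
Hsp90b1, proximal copy (chr10:86705525-86705559, - strand): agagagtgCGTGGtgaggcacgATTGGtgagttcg
Pdia6 (chr12:17266483-17266517, + strand): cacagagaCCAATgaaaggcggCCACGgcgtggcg
Calr (chr8:84847067-84847101, - strand): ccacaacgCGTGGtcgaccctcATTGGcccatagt
Canx (chr11:50325792-50325826, - strand): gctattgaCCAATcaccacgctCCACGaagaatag
Dnajc3 (chr14:118937819-118937853, + strand): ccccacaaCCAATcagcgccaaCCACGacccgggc
Creld2 (chr15:88819512-88819546, + strand): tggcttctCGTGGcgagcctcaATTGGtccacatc
Syvn1 (chr19:6046524-6046558, + strand): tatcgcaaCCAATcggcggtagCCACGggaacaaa
Derl3 (chr10:75893234-75893268, + strand): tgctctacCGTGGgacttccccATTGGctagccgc

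The nearest copy began 44 bases before the start, in Syvn1, and the farthest 212 bases before it, in Hsp90b1. None of the 9 genes with the element passed the test, where 0.572% of all genes did. Their differences ran from -0.16 for Dnajc3 to 0.71 for Derl3, with a median of 0.09. In 3 of the 9 (Derl3, Syvn1 and Calr) every Foxa2-/- array lay above the controls, beside 10.8% of all genes. For Calr the gap was only 0.02. The part of the element in these values was not tested. Sdf2l1, the gene that rose, does not hold the spaced element in its window. Its 250 upstream bases (chr16:17132384-17132633, - strand) are shown with each CGTGG, the CCACG core read on the opposite strand, in capitals.
Sdf2l1: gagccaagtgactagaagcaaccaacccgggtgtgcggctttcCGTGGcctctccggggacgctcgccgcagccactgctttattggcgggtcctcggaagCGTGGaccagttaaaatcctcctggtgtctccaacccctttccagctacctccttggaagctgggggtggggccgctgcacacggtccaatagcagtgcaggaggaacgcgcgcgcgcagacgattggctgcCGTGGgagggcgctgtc

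The core occurred 3 times there. On either strand it was present in 24 of the 29 member windows (82.8%). It was present in 32.8% of all windows and in 41.5% of the windows of genes on the array. Each full element contains it. A related form, ATTGG and CCACG with 1 base between them, which also contains the core, was found for Herpud1 and Dnajb11 and in 0.0365% of all windows. The amino acid response element TGATGNAAN, which ATF4 is known to bind, was found for Trib3, Asns and Herpud1, or 10.3% of member windows, beside 3.95% of all. The XBP1 element TGACGTGG was found in 0 member windows and in 0.676% of all. These matches describe letters and not binding.

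The abundant chaperones of the ER lumen did not pass the test. Hspa5 encodes BiP, the main Hsp70 chaperone of the ER and the usual marker of ER stress. It read 13.30, 13.18 and 13.05 in controls and 12.97, 13.28 and 13.28 in Foxa2-/- lungs, so the groups overlap and replicate 1 is the lowest of the 6. Its difference was -0.004 (SE 0.14) and the interval of the ratio 0.79 to 1.25. Hsp90b1, the ER form of Hsp90, gave -0.04 (SE 0.16), with replicate 1 again lowest at 12.29. Hyou1, an Hsp110-type chaperone that recharges BiP, read 10.73, 10.62 and 10.47 in controls and 10.98, 10.90 and 10.89 in Foxa2-/- lungs. The groups do not overlap, but the difference of 0.31 (SE 0.11) had a limma adjusted p of 0.338.

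Co-chaperones and their partners held the gene that rose beside others with differences from -0.16 to 0.32. Of 5, Sdf2l1 rose and 4 did not pass the test. Dnajb11, which delivers unfolded proteins to BiP, read 11.53, 11.58 and 11.56 in controls and 11.69, 11.79 and 11.79 in Foxa2-/- lungs. Each Foxa2-/- array was above the controls by at least 0.10, and the difference was 0.19 (SE 0.10, limma adjusted p = 0.501). Manf, an ER stress-inducible protein that can be secreted, read 11.983, 11.685 and 11.537 in controls and 11.999, 12.143 and 12.032 in Foxa2-/- lungs. Its groups were only 0.02 apart, with a difference of 0.32 (SE 0.14, limma adjusted p = 0.435). Dnajb9, a co-chaperone that favours degradation, differed by 0.05 (SE 0.14). Dnajc3, a BiP co-chaperone also known as an inhibitor of PERK, read 12.26, 12.37 and 12.33 in controls and 11.60, 12.47 and 12.42 in Foxa2-/- lungs. Replicate 1 was low and the others were above every control, and the difference over all arrays was -0.16 (SE 0.24).

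The oxidoreductases form and rearrange disulphide bonds, and none of 6 passed the test. Their differences ran from -0.24 (Pdia5) to 0.15 (Creld2), and by the brightest probe set all 6 overlapped between groups. P4hb, the classical protein disulphide isomerase, differed by 0.05 (SE 0.11) and Pdia3, which acts on glycoproteins, by 0.03 (SE 0.13). Pdia6 gave 0.14 (SE 0.11) and Pdia4 0.04 (SE 0.15). Pdia5 read 10.12 in Foxa2-/- replicates 2 and 3 and 10.56 in replicate 1, against 10.35 to 10.74 in controls. The lectin chaperones, which hold newly glycosylated proteins, were as close. Calr read 13.53 to 13.59 in controls and 13.62 to 13.69 in Foxa2-/- lungs, a gap of 0.02, and differed by 0.09 (SE 0.10, limma adjusted p = 0.742). Canx differed by 0.03 (SE 0.10), and its groups overlap.

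Of 6 ERAD genes none passed the test, and 5 had a positive difference. Derl3, an inducible member of the derlin family that moves misfolded proteins out of the ER, read 6.97, 6.67 and 6.95 in controls and 7.32, 7.84 and 7.55 in Foxa2-/- lungs. The groups were 0.36 apart. The difference of 0.71 (SE 0.17) corresponds to 1.63-fold, with an interval of 1.23 to 2.16, and had a limma adjusted p of 0.154. It passed with array weights (0.83, limma adjusted p = 0.0335), in a fit that called 607 genes where the main fit called 104. All values of Derl3, in controls and in Foxa2-/- lungs, lie below the array medians. Syvn1, the ubiquitin ligase of ERAD, read 10.57, 10.69 and 10.55 in controls and 10.96, 10.78 and 10.82 in Foxa2-/- lungs. It was higher in every Foxa2-/- array, by 0.25 on average (SE 0.11, limma adjusted p = 0.43), while its partner Sel1l differed by 0.04 (SE 0.10). Edem1, which picks glycoproteins for degradation, read 10.24, 10.69 and 10.64 in Foxa2-/- lungs against 10.11, 10.26 and 10.21 in controls. Replicate 1 lay within the control range, and the difference was 0.33 (SE 0.15, limma adjusted p = 0.441). Herpud1, an organiser of the same complex, and Derl1, another derlin, differed by -0.02 (SE 0.23) and 0.05 (SE 0.13).

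Derl3 is also a marker of plasma cells, and 5 of 9 measured plasma cell markers, Derl3 included, had every Foxa2-/- array above the controls. For this and the marker lists below, 10.8% of all genes lay above every control and 8.73% below. The test was passed by 0.572% of all genes. The mean log2 level over the 8 plasma cell markers other than Derl3 was 8.92 to 9.57 in controls and 9.79 to 10.40 in Foxa2-/- lungs, and none passed the test. Jchain, which joins secreted antibodies, read 6.45, 9.17 and 5.99 in controls and 10.27, 11.76 and 10.14 in Foxa2-/- lungs, with a limma adjusted p of 0.169, the largest difference on the list (3.52). Irf4 (1.21), Pou2af1 (0.69) and Tnfrsf17 (0.41) also had no overlap, though the gap for Pou2af1 was only 0.007. Mzb1 (0.96), Sdc1 (0.10), Fkbp11 (-0.04) and Prdm1 (-0.34) overlapped between groups. Macrophage markers were higher in 9 of 10 without overlap, with a mean level of 10.42 to 10.56 in controls and 11.43 to 12.09 in Foxa2-/- lungs, and 4 of them rose (Mmp12 3.40, Itgax 1.94, Trem2 1.64 and Cd68 1.45). Goblet and mucous cell markers had a mean level of 7.05 to 8.68 in controls and 9.36 to 9.87 in Foxa2-/- lungs, and 1 of 11 rose (Slc26a4, an anion exchanger, 5.59). Of the 11, 5 lay above every control and 1 below, Agr3 (-0.68), while Spdef, a goblet cell transcription factor, differed by -0.03. Eosinophil markers averaged 6.20 to 7.43 in controls and 8.66 to 10.05 in Foxa2-/- lungs, and 2 of 6 rose, the granule protein genes Prg2 (3.501) and Epx (2.402). T cell markers averaged 8.28 to 10.19 in controls and 10.07 to 11.22 in Foxa2-/- lungs, and none of 5 rose. Of the alveolar type II markers, Sftpd (0.68), Napsa (0.34) and Sftpa1 (0.32) lay above every control. Sftpb, Sftpc, Abca3, Slc34a2, Etv5 and Lyz1 overlapped between groups, and no type II marker passed the test. The part of all these cell types in the signal of Sdf2l1 and Derl3 was not tested.

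None of the sensors and transcription factors passed the test, and by the brightest probe set all 4 overlapped between groups. Xbp1 read 12.49, 12.32 and 12.02 in controls and 12.46, 12.37 and 12.21 in Foxa2-/- lungs. The highest of all 6 values was in a control, and the difference was 0.07 (SE 0.15), with 4 probe sets between 0.06 and 0.08. Ern1 differed by 0.09 (SE 0.11) and Atf4 by -0.08 (SE 0.11). Atf6 read 10.99, 11.03 and 10.98 in controls and 10.57, 10.73 and 11.01 in Foxa2-/- lungs, so replicate 3 stayed in the control range, and the difference was -0.23 (SE 0.14, limma adjusted p = 0.569). These values are total mRNA signals of the sensors, not their activity.

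The genes downstream of PERK and Atf4 had differences of both signs, and none of 4 passed the test. Trib3, a pseudokinase induced under stress, read 8.37, 8.45 and 8.55 in controls and 8.93, 8.72 and 8.80 in Foxa2-/- lungs, 0.16 apart, with a difference of 0.36 (SE 0.12, limma adjusted p = 0.276). Asns, the asparagine synthetase, read 10.09, 9.97 and 9.77 in controls and 10.09, 9.19 and 9.24 in Foxa2-/- lungs. Replicate 1 was thus level with the highest control, while the other Foxa2-/- arrays were below every control, and the difference of -0.43 (SE 0.26) had a limma adjusted p of 0.566. Ppp1r15a, the phosphatase subunit that restores translation, followed the same order, with 10.06, 9.13 and 9.47 in Foxa2-/- lungs against 9.53 to 9.94 in controls. Ddit3, the death-associated factor CHOP, read 10.98, 10.79 and 10.61 in controls and 10.28, 10.78 and 10.99 in Foxa2-/- lungs, an overlap that gave a difference of -0.11 (SE 0.21).

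The translocation genes bring new chains into the ER, and none of 4 passed the test. Sec61a1 and Sec61b, subunits of the membrane channel, differed by 0.09 (SE 0.12) and 0.11 (SE 0.12). Spcs2, of the signal peptidase, gave 0.05 (SE 0.10) and Ssr1, of the translocon-associated complex, -0.03 (SE 0.12). By the brightest probe set all 4 overlapped between groups, and each interval lay within 2-fold.

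**Figure D3:**
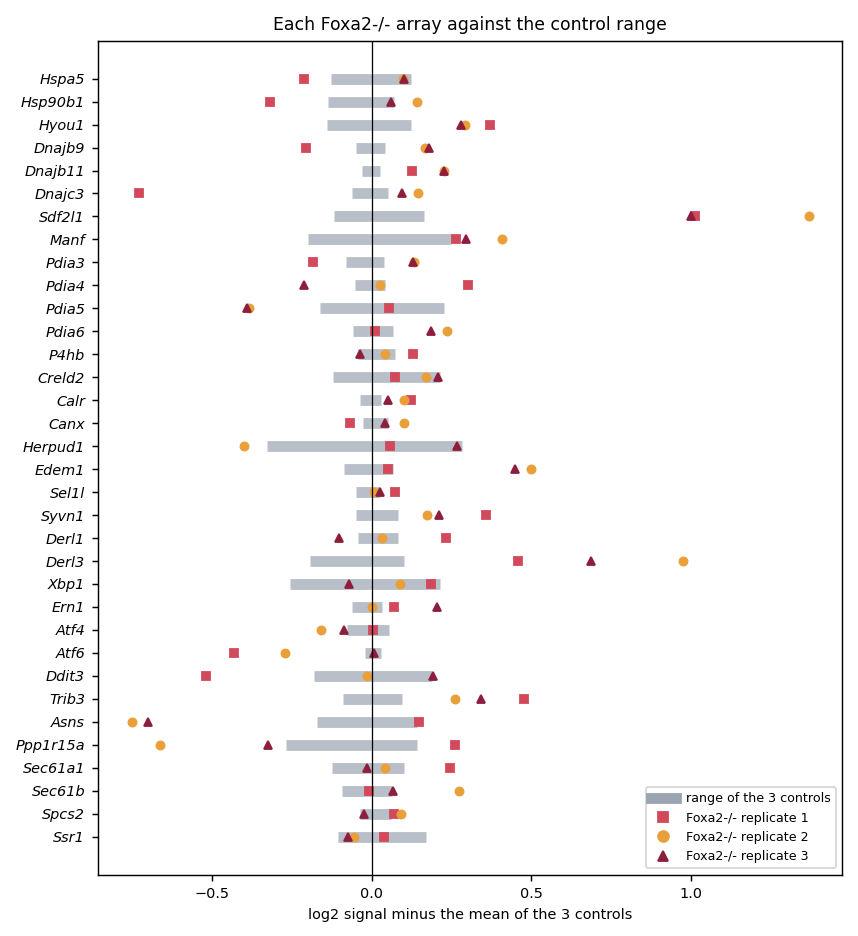
Each Foxa2-/- array's log2 signal minus the mean of the 3 controls (x axis) for the 34 genes, with symbols for replicates 1 to 3 and a grey bar for the range of the controls. Replicate 1 lies to the left of the other arrays for Dnajc3, Hsp90b1 and Pdia3 and to the right of Foxa2-/- replicates 2 and 3 for Asns and Ppp1r15a, while all 3 symbols lie far right of the bar for Sdf2l1.

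Foxa2-/- replicate 1 differed from the other Foxa2-/- arrays in many members. It was the lowest of the 6 arrays for 8 genes (Hspa5, Hsp90b1, Dnajb9, Dnajc3, Pdia3, Canx, Atf6 and Ddit3) and the highest for 11, among them Asns, Ppp1r15a, Pdia4 and Hyou1. Over all genes it was lowest for 21.7% and highest for 34.3%, close to the 23.5% and 32.4% of the members. Without it, 14 members lay above and 4 below every control, beside 15.6% and 19.1% of all genes. The genes below were Pdia5, Atf4, Asns and Ppp1r15a, and those above then also included Dnajb9, Dnajc3, Pdia3, Pdia6, Edem1 and Sec61b. Sdf2l1 was then still the only member to rise, where 1.01% of all genes rose, and the median difference of the members was 0.10.

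The other probe sets of the members gave no further call. Of 34 genes 24 had more than 1 probe set, and in 8 of these the probe sets differed in sign. None of the 83 passed over all 45037 probe sets, of which 0.0999% did, while 11 (13.3%) had an unadjusted p under 0.05, where 10.7% of all probe sets did. In 18 every Foxa2-/- array lay above the controls and in 2 below, beside 9.73% and 7.76% of all probe sets. Some dimmer probe sets gave larger values than the brightest of the same gene. For Edem1 the second probe set gave 0.74 against 0.33, for Derl1 the dimmest of 4 gave 0.56 against 0.05, and for Pdia3 the dimmer gave 0.60 against 0.03. Ssr1 showed both directions without overlap, 0.36 and -0.37, in 2 dimmer probe sets. A dimmer probe set also lay above every control for Sec61a1 (0.47), Pdia6 (0.24) and Sel1l (0.16), and below for Atf6 (-0.18). With Edem1, Derl1, Pdia3 and Ssr1, 8 members thus overlapped by the brightest probe set but not by a dimmer one. A probe set annotated to both Gm10320 and Sec61b was left out.

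**Figure D4:**
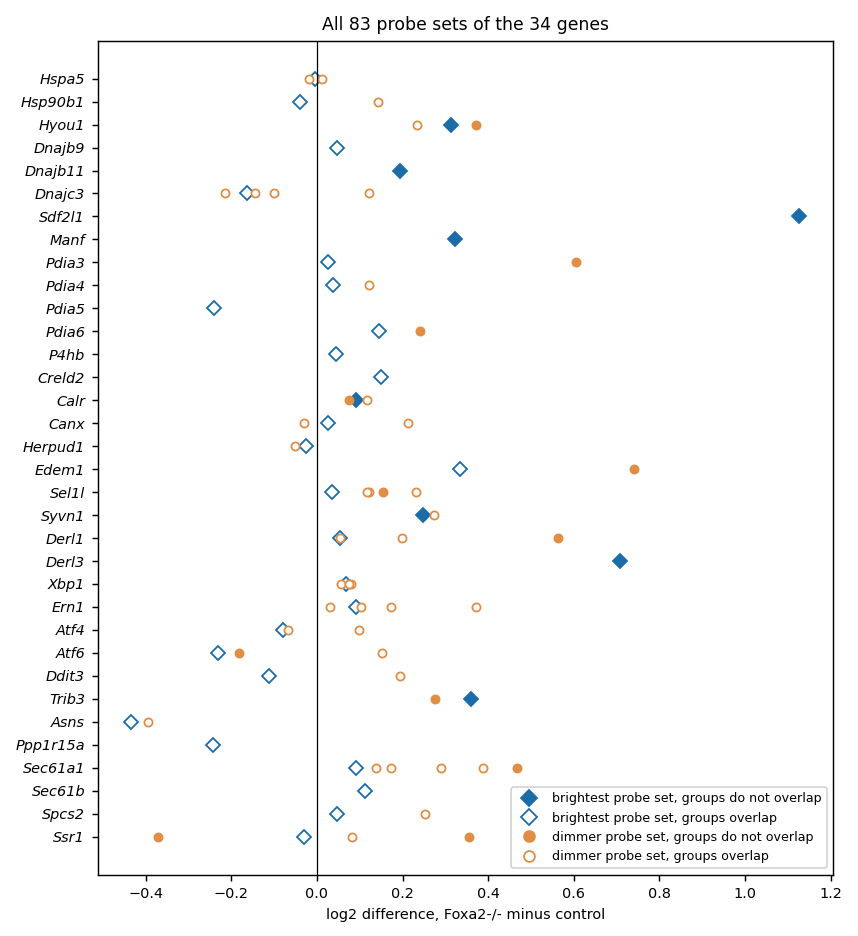
The log2 difference between Foxa2-/- and control lungs (x axis) of all 83 probe sets, with diamonds for the brightest probe set of a gene, circles for dimmer ones, and filled symbols where the groups do not overlap. The 4 probe sets of Xbp1 lie together near 0.07, whereas those of Edem1, Derl1, Pdia3 and Ssr1 are spread.

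Further genes of the ER and of its stress response were set beside the members. Of 58 further genes for translocation, glycosylation, folding, ERAD and transport none passed the test, with a median of 0.003, where 0.572% of all genes passed. Of these 58, 4 (6.9%) lay above and 6 (10.3%) below every control, beside 10.8% and 8.73% of all genes. The smallest p values were those of Erp29, an ER folding protein (0.31, SE 0.11, limma adjusted p = 0.308), Mlec, a glycan-binding ER protein (0.29, SE 0.10, limma adjusted p = 0.313), and Pdia2, a disulphide isomerase (-0.33, SE 0.14, limma adjusted p = 0.401). Of 34 further sensors and genes of the integrated stress response none passed, with a median of 0.06, and 5 (14.7%) lay above and none below every control. Mthfd2, a mitochondrial folate enzyme induced by ATF4, read 9.14, 9.29 and 8.58 in controls and 9.98, 10.06 and 9.76 in Foxa2-/- lungs. Its difference of 0.93 (SE 0.21) had a limma adjusted p of 0.128. Slc7a11, the cystine transporter, gave 0.97 (SE 0.28, limma adjusted p = 0.22) from control values of 4.84 to 5.57, all under the 25th percentiles of the arrays (5.69 to 5.78). Ern2, the IRE1 form of mucus-making cells, read 6.33, 6.06 and 6.09 in controls and 6.95, 6.45 and 6.61 in Foxa2-/- lungs (0.51, SE 0.16, limma adjusted p = 0.28). Eif2ak3, which encodes PERK, differed by -0.13 (SE 0.14).

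**Figure D5:**
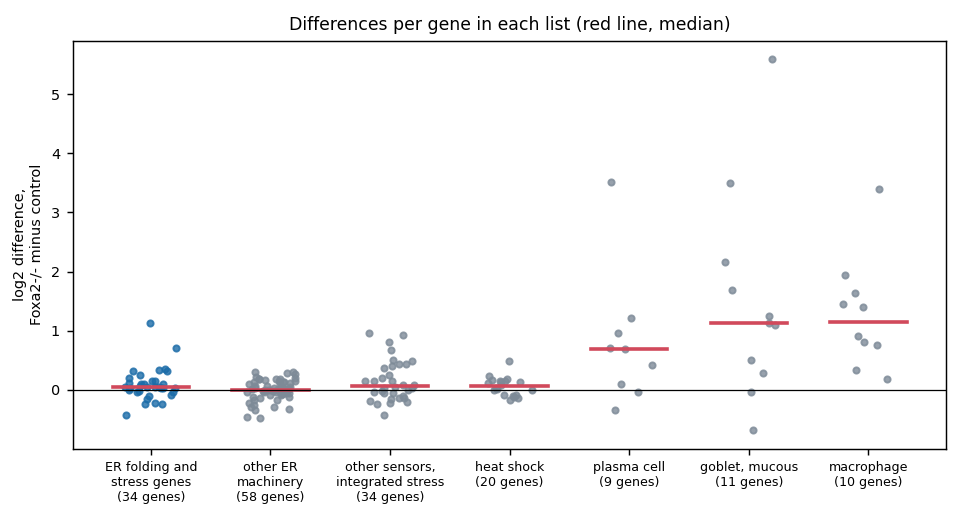
The log2 difference between Foxa2-/- and control lungs (y axis) of each gene in the ER folding and stress list, in 3 other stress and folding lists and in 3 cell type marker lists, with the median as a red line. The 4 folding and stress lists have medians of 0.003 to 0.06, and the plasma cell, goblet and macrophage lists have medians of 0.69, 1.13 and 1.15.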

How the data were processed

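The deposited log2 values were made with RMA on Affymetrix mouse arrays by the authors, per the submitters' processing notes; its version was not given in the sources used. Columns were matched to samples by accession. Of the 45037 probe sets that are not controls, 34945 were annotated to 1 symbol, and the brightest of each gene stood for it (18193 genes). Groups of 3 were compared with limma 3.58.1 (R 4.3.3, lmFit and eBayes), with Benjamini-Hochberg adjustment over all genes and 0.05 as threshold. The fit was run on simulated data whose spread was drawn from the fitted variance model. It called 28 of 67 genes changed by 1 log2 unit (41.8%) and 95.5% of those changed by 2. A 2-fold change could therefore often go uncalled. The number of arrays limits the precision; an exact permutation test of 3 against 3 cannot go below p = 0.1.

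The members and lists were chosen with earlier results of these data known. All members and Foxa2 were named, and, from each of 3 lists of other ER, stress and heat shock genes, the genes that passed or up to 3 with the smallest p. Cell type markers and Eif2ak3 were named outside this rule, after their values were seen. Promoter windows were searched for motifs on both strands; the second form of the ER stress element and the CCACG core were added after seeing the data, and the promoter of Sdf2l1 and all 10 element copies were chosen for display after values were seen. The planned description of protein ends was not made, as no protein table was used here. Alternatives covered scaling, dim genes, variance model, array weights, title number, probe set choice, threshold and leaving out each array.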

Additional observations from a re-analysis of the deposited data

How the results depend on the processing

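Sdf2l1 stayed higher under every alternative run, and its call was lost under cyclic loess and without any array but Foxa2-/- replicate 1. With the title number as a fixed block, or in the 3 samples sharing that number, no gene was called, so these fits say nothing about the stability of any call. The count of all genes called was 104, and 48 under cyclic loess, 52 among genes brighter than the median, 607 with array weights, 399 with that number as a random block, 320 at an adjusted p under 0.1 and 0 with the fixed block (limma; 2121 at an unadjusted p under 0.05) or in the 3 samples, and 0 to 249 leaving out 1 array. Members called were 1, and 0 under cyclic loess, the fixed block or the 3 samples, 2 with array weights, and 0 to 1 leaving out 1 array. Members without overlap were 8, or 23.5% beside 19.6% of all genes. In the 3 samples they were 23, or 67.6% beside 75.6% of all genes. Leaving out 1 array, which can only raise such counts, they were 9 to 18, or 26.5% to 52.9% beside 26.7% to 34.7% of all genes. The median difference of the members was 0.047, and 0.084 with the fixed block or the 3 samples, 0.103 with the mean of probe sets, and 0.047 to 0.095 leaving out 1 array. Small differences turned sign: Hspa5 was 0.019 with median centring, 0.007 with cyclic loess, 0.052 with array weights and 0.027 with the random block. With array weights Hsp90b1 was 0.053, Dnajc3 0.071, Pdia4 -0.065 and Xbp1 -0.022. With the fixed block, which gives the same estimates as the 3 samples, Hspa5 was 0.097, Hsp90b1 0.035, Dnajc3 0.07, Pdia4 -0.103, Herpud1 0.26, Sel1l -0.007, Xbp1 -0.032, Ddit3 0.099 and Ssr1 0.002. With the random block Pdia4 was -0.007 and Herpud1 0.114, and with the mean of probe sets Hsp90b1 was 0.052, Ddit3 0.041 and Ssr1 0.009. Leaving out 1 array, the ranges that crossed 0 were -0.067 to 0.1 for Hspa5, -0.129 to 0.101 for Hsp90b1, -0.019 to 0.173 for Dnajb9, -0.317 to 0.119 for Dnajc3, -0.026 to 0.131 for Pdia3, -0.093 to 0.164 for Pdia4, -0.013 to 0.072 for Canx, -0.187 to 0.163 for Herpud1, -0.035 to 0.133 for Derl1, -0.059 to 0.176 for Xbp1, -0.266 to 0.09 for Ddit3 and -0.082 to 0.055 for Ssr1. The causes were not tested. No paired analysis was possible because the replicate numbers only follow accession order; the title number, whose meaning is not given, was fitted as a block instead.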

Other observations

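Heat shock genes of the cytosol and mitochondria serve folding outside the ER. None of 20 measured genes passed the test (limma, adjusted p under 0.05), where 0.572% of all genes did. At an unadjusted p under 0.05 there were 0, beside 12.3% of all genes. All 20 overlapped between groups, as did 80.4% of all genes. The median difference of these heat shock genes was 0.06. Dnajb1, an Hsp40 co-chaperone, differed by 0.24 (SE 0.16), Hspa1a, an inducible Hsp70, by 0.49 (SE 0.38) and Hspb1, a small heat shock protein, by 0.18 (SE 0.22). Markers of club cells, lung endothelium and fibroblasts had median differences of -0.25, -0.25 and -0.08 over 5 genes each, and none passed. The club cell genes Cldn10 (-0.85), Cyp2f2 (-0.51) and Scgb3a2 (-0.25) lay below every control, while Scgb1a1 and Scgb3a1 overlapped. Of the endothelial genes only Tek (-0.30) lay below every control, and the fibroblast genes all overlapped. Over all genes 8.73% lay below every control.

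The spaced ER stress element also lay in the promoter windows of 11 array genes that are not members. None of the 11 passed the test, where 0.572% of all genes did, and their median difference was -0.01. In 0 of them every Foxa2-/- array lay above the controls and in 2 below, beside 10.8% and 8.73% of all genes. The 2 were Zfp57, a zinc finger protein of imprinted loci (-0.95, SE 0.22, limma adjusted p = 0.141), and Pan2, a subunit of a deadenylase (-0.34, SE 0.11, limma adjusted p = 0.263). Both were named after their values were seen.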
